A study of Mus musculus with 12 samples.

Results

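The 34 genes described here encode proteins that make ribosomes in the nucleolus: subunits and factors of RNA polymerase I, the proteins of the guide RNA particles that modify ribosomal RNA, abundant nucleolar proteins, and assembly factors of the small and the large ribosomal subunit. They were listed by function, in a list chosen with earlier results of these data known, and were found on the arrays by the RefSeq transcript that the scanner files give for each probe. Of the 34 genes 30 were found by RefSeq transcript, and all 30 were tested among 12438 genes; Nop56, Wdr43, Utp20 and Gnl3 were not matched and are not analysed here. Messenger RNA was measured in 12 cultures of mouse embryonic fibroblasts, 1 one-colour array per culture. The knockout (KO) line was derived from mouse embryos that lack FAK, the focal adhesion tyrosine kinase that Ptk2 encodes and that acts at integrin contacts. The rescue line is a single clone, DA2, of FAK-null cells in which FAK was put back. Both lines were grown in DMEM with Glutamax and 10% serum; the rescue line alone also had hygromycin B and non-essential amino acids, so that line and medium changed together. Each line was seeded either sparsely, with 410000 cells per 10 cm dish, or densely, with 8200000 cells, and was harvested after 24 h. Each of the 4 groups (sparse rescue, dense rescue, sparse KO and dense KO) had 3 cultures, 1 from each of 3 experimental days, and the numbers 1 to 3 below are these days. There is 1 cell line per genotype, so a difference between the lines describes these 2 lines.

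In a growing cell, RNA polymerase I transcribes the ribosomal RNA precursor inside the nucleolus, where it is methylated, pseudouridylated, cut and folded onto ribosomal proteins by a large set of helper proteins that leave before the subunits enter translation. The amount of this machinery is known to follow growth: transcription factors of the MYC family induce many of its genes, MXD family proteins oppose them, and the kinase mTOR drives RNA polymerase I and III. Normal fibroblasts slow their growth and division when they become crowded.

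Promoters are shown for 4 genes with different kinds of response described below, and all 4 hold a sequence marked in capitals. Nop2 had the largest difference between the lines and Gar1 the largest difference in the response to density. Nhp2 had one of the largest falls at high density in rescue cells, and Rrn3 fell in both lines (in KO cells not with spike-in scaling). Each sequence is the 250 bases before the RefSeq transcription start (assembly GRCm38.p6), read 5′ to 3′ on the gene's strand, with the E-box CACGTG (the same on both strands, a sequence that MYC and related factors can bind) or the ETS-type sequence CCGGAAGT (ACTTCCGG on the other strand) in capitals. The Nop2 region is chr6:125131633-125131882 on the + strand, and Rrn3 is chr16:13780449-13780698 on the + strand. The Gar1 region is chr3:129831397-129831646 on the - strand, and Nhp2 is chr11:51619523-51619772 on the + strand.
Nop2: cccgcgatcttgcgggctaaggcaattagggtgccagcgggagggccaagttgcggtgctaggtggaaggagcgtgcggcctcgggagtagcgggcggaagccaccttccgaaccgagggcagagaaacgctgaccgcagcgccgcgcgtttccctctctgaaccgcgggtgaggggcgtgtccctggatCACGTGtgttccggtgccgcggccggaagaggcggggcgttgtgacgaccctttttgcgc
Rrn3: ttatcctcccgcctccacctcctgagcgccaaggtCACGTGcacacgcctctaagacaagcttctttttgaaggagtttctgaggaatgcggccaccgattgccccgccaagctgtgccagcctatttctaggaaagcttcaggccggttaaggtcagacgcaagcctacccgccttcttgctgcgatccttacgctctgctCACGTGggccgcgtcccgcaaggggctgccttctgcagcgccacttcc
Gar1: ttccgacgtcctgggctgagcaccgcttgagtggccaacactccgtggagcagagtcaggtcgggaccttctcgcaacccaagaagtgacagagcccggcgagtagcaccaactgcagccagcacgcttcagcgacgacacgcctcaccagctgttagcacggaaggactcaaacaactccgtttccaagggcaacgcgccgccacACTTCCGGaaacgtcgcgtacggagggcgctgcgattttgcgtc
Nhp2: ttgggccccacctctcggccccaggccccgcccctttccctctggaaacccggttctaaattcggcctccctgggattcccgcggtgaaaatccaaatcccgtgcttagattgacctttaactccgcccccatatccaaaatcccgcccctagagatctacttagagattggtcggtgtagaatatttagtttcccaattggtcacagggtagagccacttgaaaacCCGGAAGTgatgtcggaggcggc

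The E-box of Nop2 starts at position -60 from the transcription start, those of Rrn3 at -215 and -48, the ETS-type sequence of Gar1 at -44 and that of Nhp2 at -23. Rrn3 also has the ETS-type sequence, read as ACTTCCGG, at -6. It runs past the transcription start, so it is cut off in the printed bases and not in capitals. Of the 34 genes 30 have a promoter window in the RefSeq table, which runs from 250 bases before to 50 bases after the start. The 30 genes with a window are not the 30 measured genes. They include Nop56, Wdr43, Utp20 and Gnl3, which were not tested and which all hold the GC box. The shares of tested genes below thus come from a set that leaves these genes out. CACGTG lies in a window of 7 of these 30 (23.3%: Rrn3, Wdr43, Utp20, Nop2, Pes1, Nle1 and Mybbp1a), against 7.15% of all 32851 windows (a gene can have several) and 11.5% of the tested genes that have one. CCGGAAGT lies in 7 (23.3%: Polr1c, Rrn3, Gar1, Nhp2, Heatr1, Wdr74 and Ppan), against 3.89% of windows and 8.61% of tested genes. The GC box GGGCGG lies in 21 (70%), against 35.7% of windows and 66.2% of tested genes. The CCAAT box (ATTGG or CCAAT) lies in 10 (33.3%, against 37.4% of windows and 43.4% of tested genes), and TATAAA in 3 (10%, against 13.6% and 10.1%). Both strands were searched for every sequence, and these counts describe letters in the windows and not binding. The 4 promoters shown all hold CACGTG or CCGGAAGT, so they do not stand for the 30 genes. Rrp9 has neither, and it fell more in dense rescue cells than Nhp2 (log2 changes of -2.39 and -2.33). A link between these sequences and the responses was not tested.

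Levels below are log2 processed signal minus the array's 75th percentile. Levels of different genes come from different probes and are not set against each other. Changes are log2 differences of group means ± SE from a limma fit of all 12438 genes, with n = 3 cultures in each group. A gene rose, fell or differed when its Benjamini-Hochberg adjusted p was under 0.05. All 30 genes were well above background on all 12 arrays, where 23152 to 26183 of 41174 probes were, and no spot was saturated. For the 12 genes with several probes the brightest was used; all probes of a gene gave the same sign in 12 of 12 genes in 4 comparisons and in 8 of 12 for KO minus rescue in sparse cells, and no 2 probes of a gene were called in opposite directions (a fit of all probes). The probes differed most for Bysl in sparse cells (by 1.01), Ncl in dense cells (1.46) and Heatr1 with density in KO cells (1.50), as ranges of log2 changes. The 2 densities of a line and day shared a slide, and the lines shared a slide on day 2 only, so that on days 1 and 3 line and slide cannot be told apart. The mean log2 signal of 4 RNA spike-in probes ran from 14.17 to 14.50 for sparse KO, 12.07 to 12.78 for dense KO, 12.94 to 13.58 for sparse rescue and 12.65 to 13.37 for dense rescue. Scaling to the spike-in moved the median of all genes by -1.64 for KO minus rescue in sparse cells, by 0.938 in dense cells, by 0.601 with density in rescue cells and by 3.20 with density in KO cells. With the spike-in the sign turned for each of the 27 genes (of 30) that were below 0 with density in KO cells, for 23 of the 24 above 0 for KO minus rescue in sparse cells (all but Nop2), and for Polr1c, Ubtf and Nop10 with density in rescue cells. It turned for none in dense cells or in the interaction. The values are given beside called changes and in the last section, and the uncalled changes with density in KO cells below are read with this. In the authors' table of normalised values, the 4 columns named for day 3 matched the day 3 scanner arrays of the same density and the other line (r = 0.903 to 0.932 across 27312 probes, each centred on its mean over the arrays, against -0.679 to -0.521 for the arrays they are named for). The other 8 columns matched their own arrays (r = 0.883 to 0.941). On the scanner arrays the 12 pairs of arrays of 1 group correlated at r = 0.982 to 0.992 across genes. Used by its column names, that table gave 0 calls for the 30 genes in each of the 5 comparisons (limma; at an unadjusted p under 0.05, 9 falls with density in rescue cells and 6 in KO cells, and 0 elsewhere). Without day 3 it gave 10 and 25 genes higher in KO cells when sparse and dense, 26 and 3 falls with density in rescue and KO cells, and 12 interactions. The shares of all genes were 17.2% and 25.4%, 12.8% and 1.71%, and 6.04% in the same order. Across the 12438 genes, each centred on its mean over the arrays, the day 3 scanner arrays correlated at r = 0.813 to 0.922 with days 1 and 2 of the group they are labelled as and at -0.84 to -0.665 with the other line at the same density. The day 3 scanner arrays thus go with the days 1 and 2 of their labels, and the day 3 columns of the table do not. The results below rest on the scanner files as labelled, with counts without day 3 beside them. Ptk2 itself has 2 probes, and each passed the background test on all 12 arrays. One had mean levels of 0.31 ± 0.21 and 0.36 ± 0.03 (SD, n = 3) in sparse and dense rescue cells and 0.20 ± 0.15 and 0.29 ± 0.24 in KO cells; the other had 0.71 ± 0.50, -0.68 ± 0.44, -1.37 ± 0.34 and -1.61 ± 0.27 in the same order. Where either probe lies relative to the disrupted part of Ptk2 or the transgene is not known here, so they do not check the labels. Of 10 fibroblast markers 8, among them Vim, Col1a1 and Pdgfrb, were well above background on all 12 arrays, Thy1 was on 1 and Fap on 0. All 8 were lower in dense KO than in dense rescue cells, from -1.19 (Col1a2) to -6.36 (Pdgfrb) on the log2 scale, and 6 were lower and 2 (Pdgfra and Fn1) higher in sparse KO cells, from -7.56 (Pdgfrb) to 1.23 (Pdgfra; both below 0 with spike-in scaling), all with an adjusted p under 0.05; with density in rescue cells 4 rose and 0 fell. The part of these markers in the difference between the lines was not tested. Of 10 measured markers of macrophages, endothelium and epithelium, Ptprc and Pecam1 were above background on 0 arrays, while Csf1r, Krt8 and Krt18 were on all 12. Krt18, an epithelial keratin, had mean levels of 6.86 and 6.27 in sparse and dense KO cells against -1.67 and -3.46 in rescue cells. Of the 5 such markers tested, 2 (Krt18 and Krt8) were higher and 2 lower in dense KO than in dense rescue cells. Among all genes 31.9% were higher and 29.7% lower there. The lower ones were the endothelial Kdr (-3.62, adjusted p = 3.54e-07) and the epithelial Cdh1 (-2.23, adjusted p = 0.00153), as log2 changes (limma). The summed signal of the 10 markers, in units of the array's 75th percentile, was 111 to 135 for sparse KO, 74.7 to 87.3 for dense KO, 4.19 to 6.75 for sparse rescue and 1.76 to 1.89 for dense rescue. Without Krt18 the sums were 3.91 to 5.71, 4.08 to 5.41, 3.91 to 6.37 and 1.66 to 1.80 in the same order, lowest in dense rescue cells as the genes below are. Krt8 had the highest mean level of the remaining markers in every group, while Kdr and Cdh1 had their highest means in dense rescue cells. The part of these markers in the results was not tested. In cultures of many cells, fewer cells that express a gene and less RNA per cell cannot be told apart.

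Ribosome biogenesis genes had their lowest mean levels in dense rescue cells. The mean level was lowest in dense rescue cells for 30 of the 30 genes, and for 29 of them every dense rescue array lay below the other 9 arrays. The shares of all genes that did so were not counted. The like shares are known for pairs of groups. Compared with sparse rescue cells alone, 30 of the 30 genes and 26.3% of all genes were lower in dense rescue cells without overlap. Compared with dense KO cells alone, 29 of the 30 genes and 34.7% of all genes were. Averaged over the 30 genes, the level was 3.68 ± 0.02 (SD, n = 3) in sparse and 2.14 ± 0.11 in dense rescue cells. In KO cells the average was 4.10 ± 0.10 when sparse and 3.59 ± 0.17 when dense. The group with the highest mean level was sparse KO for 23 genes, sparse rescue for 5 and dense KO for 2. Dense KO cells and sparse rescue cells overlapped for 15 of the 30 genes, and the share of all genes was not counted here either.

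**Figure D1:**
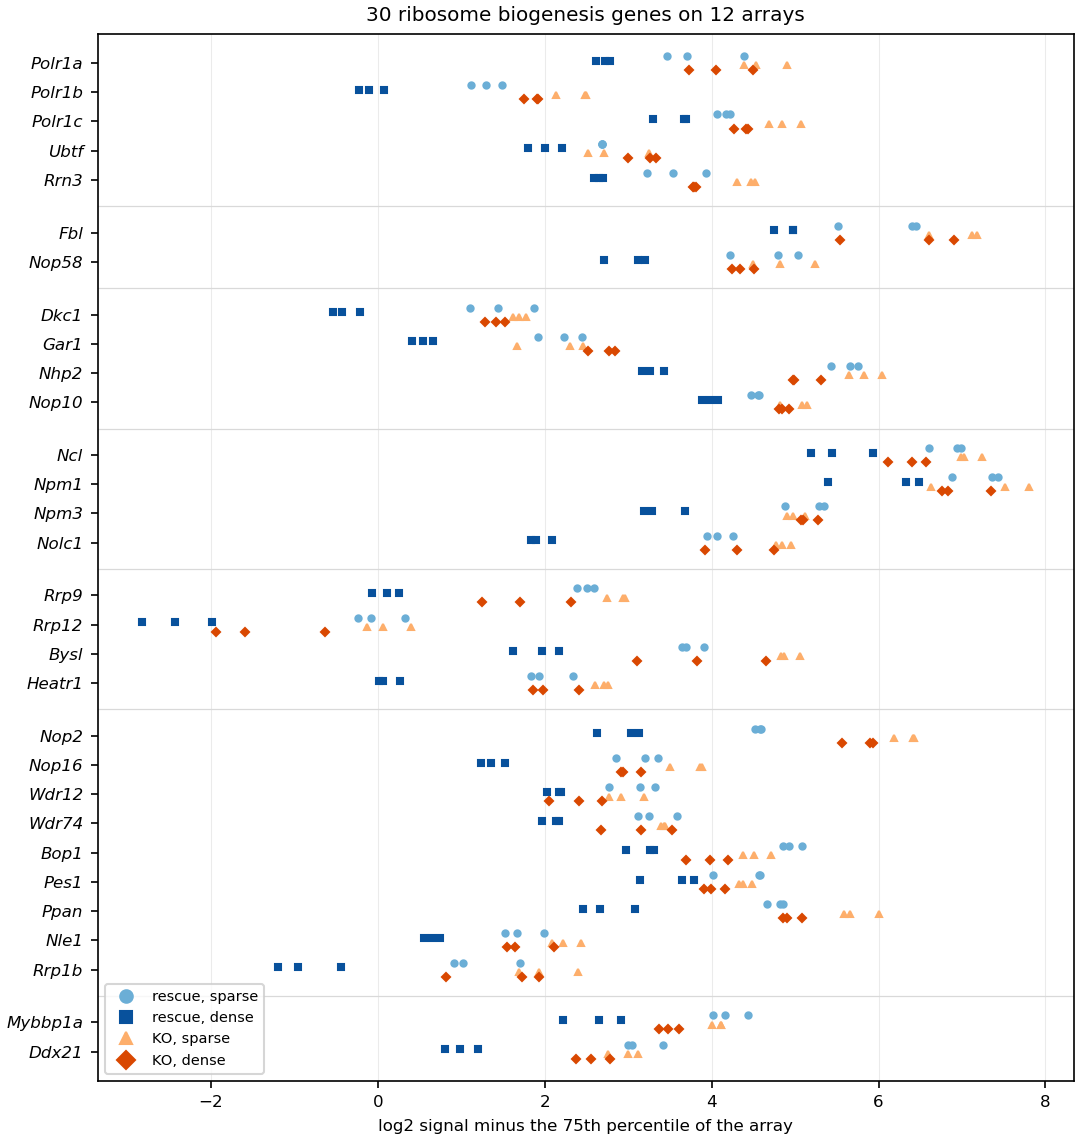
Levels of the 30 measured ribosome biogenesis genes (rows, grouped by role) on the 12 arrays, in log2 signal minus the array's 75th percentile (x axis); each point is 1 culture, with colour and shape for the 4 groups. The dense rescue arrays (dark squares) lie below the other 9 arrays for 29 of 30 genes, and the share of all genes was not counted. Rows are not comparable with each other because each gene has its own probe.

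In rescue cells 30 of 30 genes fell and 0 rose with density (limma; at an unadjusted p under 0.05 also 30 and 0), where 21% of all genes tested fell and 19.0% rose. In KO cells 6 fell and 0 rose (unadjusted, 17 and 1), where 5.48% of all genes fell and 5.43% rose, and the direction turned when arrays were scaled to the spike-in. The density response was higher in KO than in rescue cells (a positive interaction) for 17 genes and lower for 0 (unadjusted, 18 and 0), against 11.3% higher and 9.46% lower among all genes. In dense cells 28 were higher in KO than in rescue cells and 0 were lower (unadjusted, 29 and 0), against 31.9% higher and 29.7% lower among all genes. In sparse cells 12 were higher in KO cells and 0 were lower (unadjusted, 14 and 1), against 23.2% higher and 25.6% lower among all genes, and this direction turned with spike-in scaling. The comparisons share groups, so their counts are not independent of each other.

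Genes of RNA polymerase I transcription fell at high density in rescue cells and were higher in KO than in rescue cells when dense. Polr1a encodes the largest catalytic subunit; its level was 3.70, 3.46 and 4.39 on the sparse rescue arrays of days 1 to 3 and 2.72, 2.62 and 2.78 on the dense rescue arrays. In KO cells Polr1a had levels of 4.91, 4.39 and 4.53 when sparse and 4.50, 3.73 and 4.06 when dense. The 3 dense rescue arrays were the lowest and overlapped with no other group, while both sparse groups overlapped in part. Its log2 change with density was -1.15 ± 0.27 (adjusted p = 0.00495) in rescue cells and -0.51 ± 0.27 (adjusted p = 0.238) in KO cells. KO minus rescue was 1.39 ± 0.27 (adjusted p = 0.000672) in dense cells and 0.76 ± 0.27 (adjusted p = 0.0329) in sparse cells (-0.88 with spike-in scaling). Polr1b encodes the other large catalytic subunit; its levels were 1.30, 1.49 and 1.12 in sparse rescue and 0.07, -0.11 and -0.23 in dense rescue cells. In KO cells Polr1b had levels of 2.48, 2.50 and 2.14 when sparse and 1.75, 1.91 and 1.92 when dense. The 4 groups of Polr1b did not overlap, and even dense KO cells lay above sparse rescue cells. Its log2 change with density was -1.39 ± 0.17 (adjusted p = 8.34e-05) in rescue and -0.51 ± 0.17 (adjusted p = 0.0793) in KO cells, an interaction of 0.88 ± 0.24 (adjusted p = 0.0242).

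Rrn3 encodes the factor that joins RNA polymerase I to the promoter and that growth signals control. It had levels of 3.93, 3.54 and 3.23 in sparse rescue and 2.66, 2.60 and 2.69 in dense rescue cells. In KO cells Rrn3 had levels of 4.52, 4.48 and 4.30 when sparse and 3.78, 3.79 and 3.81 when dense. Dense cells were below sparse cells of the same line on every array, and the interaction, 0.28 ± 0.26 (adjusted p = 0.473), did not pass. Rrn3 fell by a log2 change of -0.92 ± 0.18 (adjusted p = 0.00197) in rescue cells and -0.64 ± 0.18 (adjusted p = 0.0449) in KO cells (2.59 with spike-in scaling). Ubtf encodes the upstream binding factor that holds ribosomal DNA open for transcription, and its levels were 2.69, 2.69 and 2.68 in sparse rescue and 1.80, 2.21 and 2.01 in dense rescue cells. In KO cells Ubtf had levels of 2.52, 3.25 and 2.71 when sparse and 3.0, 3.26 and 3.34 when dense. Sparse cells of both lines overlapped, and the dense KO arrays lay above all sparse rescue arrays while overlapping with sparse KO cells. The log2 change of Ubtf with density was -0.68 ± 0.21 (adjusted p = 0.0198) in rescue cells (0.02 with spike-in scaling) and 0.37 ± 0.21 (adjusted p = 0.268) in KO cells, an interaction of 1.06 ± 0.29 (adjusted p = 0.0242). Polr1c, a subunit shared by RNA polymerases I and III, had a log2 change of -0.59 ± 0.17 (adjusted p = 0.0155) in rescue cells (0.11 with spike-in scaling) and -0.49 ± 0.17 (adjusted p = 0.0848) in KO cells. Its interaction was 0.10 ± 0.24 (adjusted p = 0.804), the lowest of the 30.

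Both measured proteins of the box C/D particles, which guide methylation of ribosomal RNA, were lower in dense rescue cells than in the other groups. Fbl encodes fibrillarin, their methyltransferase, with levels of 6.40, 6.45 and 5.51 in sparse rescue and 4.98, 4.97 and 4.75 in dense rescue cells. In KO cells Fbl had levels of 7.12, 7.18 and 6.61 when sparse and 5.54, 6.60 and 6.90 when dense. Its day 3 array of sparse rescue cells and day 1 array of dense KO cells were the low ones of their groups. The log2 change of Fbl was -1.22 ± 0.35 (adjusted p = 0.0157) with density in rescue cells, 1.45 ± 0.35 (adjusted p = 0.00337) for KO minus rescue in dense cells and 0.85 ± 0.35 (adjusted p = 0.0629) in sparse cells, where the groups did not overlap but the test was not passed. Nop58, a core protein of the same particles, had a log2 change of -1.68 ± 0.25 (adjusted p = 0.000325) with density in rescue cells against -0.49 ± 0.25 (adjusted p = 0.238) in KO cells.

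Among the box H/ACA proteins, which guide pseudouridylation and also hold telomerase RNA, Gar1 had the largest interaction of the 30 genes. Its levels were 1.91, 2.24 and 2.45 in sparse rescue and 0.55, 0.67 and 0.41 in dense rescue cells. In KO cells Gar1 had levels of 1.66, 2.46 and 2.31 when sparse and 2.52, 2.77 and 2.84 when dense. The dense KO arrays were above all sparse KO and all sparse rescue arrays, while the dense rescue arrays were below all others. The log2 change of Gar1 with density was -1.66 ± 0.23 (adjusted p = 0.000165) in rescue cells and 0.57 ± 0.23 (adjusted p = 0.131) in KO cells, an interaction of 2.23 ± 0.32 (adjusted p = 0.000797). Dkc1 encodes dyskerin, the pseudouridine synthase; its log2 change with density was -1.87 ± 0.20 (adjusted p = 3.21e-05) in rescue and -0.29 ± 0.20 (adjusted p = 0.376) in KO cells. Nhp2, which binds the guide RNA, fell in both lines, by log2 changes of -2.33 ± 0.18 (adjusted p = 4.26e-06) in rescue and -0.75 ± 0.18 (adjusted p = 0.0215) in KO cells (2.48 with spike-in scaling), with an interaction of 1.58 ± 0.25 (adjusted p = 0.00136). Nop10, the small scaffold protein of the particle, fell least of the 30 genes in dense rescue cells, by a log2 change of -0.55 ± 0.15 (adjusted p = 0.0114) (0.15 with spike-in scaling), and its interaction was 0.39 ± 0.21 (adjusted p = 0.209). In dense cells all 4 H/ACA genes were higher in KO than in rescue cells, with log2 changes of 2.17 (Gar1), 1.81 (Nhp2), 1.80 (Dkc1) and 0.88 (Nop10).

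All 4 nucleolar phosphoproteins and chaperones were higher in KO than in rescue cells when dense, from 0.84 (Ncl) to 2.38 (Nolc1) on the log2 scale. Ncl encodes nucleolin, an RNA-binding protein of the nucleolus, with levels of 6.61, 6.98 and 6.94 in sparse rescue and 5.45, 5.93 and 5.19 in dense rescue cells. In KO cells Ncl had levels of 7.25, 7.02 and 6.99 when sparse and 6.11, 6.40 and 6.57 when dense. The dense groups lay below the sparse group of their line on every array, and the dense KO arrays lay below all sparse rescue arrays. Its log2 change with density was -1.32 ± 0.22 (adjusted p = 0.000542) in rescue and -0.72 ± 0.22 (adjusted p = 0.0522) in KO cells, and KO minus rescue in dense cells was 0.84 ± 0.22 (adjusted p = 0.00499). Npm1 encodes nucleophosmin, a histone chaperone and shuttle of the nucleolus, with levels of 7.36, 7.43 and 6.88 in sparse rescue and 6.48, 6.33 and 5.40 in dense rescue cells. In KO cells Npm1 had levels of 7.81, 7.51 and 6.63 when sparse and 7.34, 6.83 and 6.76 when dense. Both lines overlapped when sparse, and the day 3 array was the lowest in all 4 groups. Npm1 changed with density by -1.15 ± 0.35 (adjusted p = 0.0206) in rescue cells (log2), and KO minus rescue in dense cells was 0.91 ± 0.35 (adjusted p = 0.0398).

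Npm3, a relative of nucleophosmin, had levels of 4.88, 5.29 and 5.34 in sparse rescue and 3.68, 3.19 and 3.29 in dense rescue cells. In KO cells Npm3 had levels of 5.12, 4.97 and 4.90 when sparse and 5.28, 5.10 and 5.07 when dense. Only the dense rescue arrays of Npm3 stood apart, and the other 3 groups overlapped. The log2 change of Npm3 with density was -1.78 ± 0.19 (adjusted p = 2.92e-05) in rescue and 0.15 ± 0.19 (adjusted p = 0.647) in KO cells, an interaction of 1.93 ± 0.26 (adjusted p = 0.000594). Nolc1 encodes a nucleolar phosphoprotein that carries guide RNA particles through the nucleolus and Cajal bodies. It had levels of 3.95, 4.06 and 4.25 in sparse rescue and 1.90, 2.09 and 1.84 in dense rescue cells. In KO cells Nolc1 had levels of 4.84, 4.96 and 4.77 when sparse and 4.75, 3.92 and 4.31 when dense. Sparse KO cells were highest on every array, and dense KO cells overlapped with sparse rescue cells. KO minus rescue was 2.38 ± 0.21 (adjusted p = 9.82e-07) in dense cells and 0.77 ± 0.21 (adjusted p = 0.00862) in sparse cells (log2; -0.87 with spike-in scaling), and the change with density was -2.14 ± 0.21 (adjusted p = 1.76e-05) in rescue and -0.53 ± 0.21 (adjusted p = 0.124) in KO cells.

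Factors of the small subunit included Rrp12, whose fall with density was the largest of the 30 genes in either line by the brightest probes. Dimmer probes of other genes fell further (limma fit of all probes). A probe of Ddx21 changed by -2.72 in rescue and -1.63 in KO cells, and a probe of Heatr1, above background on 10 arrays, by -2.11 in KO cells. Rrp12, which takes part in export and late maturation of the subunit, had levels of 0.33, -0.09 and -0.24 in sparse rescue and -2.43, -1.98 and -2.82 in dense rescue cells. In KO cells Rrp12 had levels of 0.06, 0.40 and -0.13 when sparse and -1.93, -1.60 and -0.63 when dense. Both dense groups lay below both sparse groups, and within the dense KO group the day 3 array was about 1 log2 unit or more above the other days. The log2 change of Rrp12 with density was -2.42 ± 0.33 (adjusted p = 0.000165) in rescue and -1.50 ± 0.33 (adjusted p = 0.0162) in KO cells (1.73 with spike-in scaling); the interaction, 0.92 ± 0.47 (adjusted p = 0.187), did not pass. Rrp9, a protein of the U3 particle that starts processing of the precursor, had levels of 2.38, 2.59 and 2.51 in sparse rescue and 0.26, 0.11 and -0.06 in dense rescue cells. In KO cells Rrp9 had levels of 2.94, 2.96 and 2.75 when sparse and 1.25, 1.71 and 2.32 when dense. Dense KO cells lay between dense rescue cells and both sparse groups. Rrp9 fell with density by log2 changes of -2.39 ± 0.24 (adjusted p = 2.06e-05) in rescue and -1.12 ± 0.24 (adjusted p = 0.0133) in KO cells (2.10 with spike-in scaling), an interaction of 1.27 ± 0.33 (adjusted p = 0.0204).

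Bysl encodes bystin, a late factor of small subunit assembly, with levels of 3.91, 3.70 and 3.65 in sparse rescue and 2.17, 1.97 and 1.62 in dense rescue cells. In KO cells Bysl had levels of 4.83, 5.06 and 4.87 when sparse and 3.10, 3.83 and 4.66 when dense. Sparse KO cells were highest on every array, and the dense KO arrays spread over more than 1 log2 unit, with the day 1 array lowest. KO minus rescue for Bysl was 1.17 ± 0.32 (adjusted p = 0.00894) in sparse cells (-0.47 with spike-in scaling) and 1.94 ± 0.32 (adjusted p = 0.000195) in dense cells (log2). Its change with density was -1.83 ± 0.32 (adjusted p = 0.000784) in rescue and -1.06 ± 0.32 (adjusted p = 0.0529) in KO cells. Heatr1, a large scaffold of the early processing complex that is also needed for RNA polymerase I transcription, was higher in KO cells by 1.97 ± 0.19 (adjusted p = 3.09e-06) when dense and by 0.66 ± 0.19 (adjusted p = 0.0146) when sparse (log2; -0.98 with spike-in scaling), with an interaction of 1.32 ± 0.27 (adjusted p = 0.00647).

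Nop2, of the large subunit factors, gave the largest difference between the lines at either density. It encodes an RNA cytosine methyltransferase of the nucleolus, known as a proliferation antigen. Its levels were 4.59, 4.58 and 4.51 in sparse rescue and 3.13, 3.04 and 2.63 in dense rescue cells. In KO cells Nop2 had levels of 6.41, 6.43 and 6.19 when sparse and 5.89, 5.56 and 5.93 when dense. The groups did not overlap, and dense KO cells lay about 1 log2 unit or more above sparse rescue cells on every array. KO minus rescue was 2.86 ± 0.18 (adjusted p = 6.04e-08) in dense cells and 1.78 ± 0.18 (adjusted p = 5.47e-06) in sparse cells (log2), and the latter was 0.15 with spike-in scaling. The change of Nop2 with density was -1.63 ± 0.18 (adjusted p = 4e-05) in rescue and -0.55 ± 0.18 (adjusted p = 0.0728) in KO cells, an interaction of 1.08 ± 0.25 (adjusted p = 0.0114).

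The other large subunit factors split by how far KO cells exceeded rescue cells when dense. Rrp1b (2.35 ± 0.33, adjusted p = 6.56e-05) and Ppan (2.22 ± 0.19, adjusted p = 1.08e-06), both nucleolar assembly factors, had the largest log2 differences after Nop2, followed by Nop16 (1.63 ± 0.19, adjusted p = 1.13e-05), Nle1 (1.12 ± 0.20, adjusted p = 0.000358), a factor that binds the remodelling ATPase of the subunit, and Wdr74 (1.03 ± 0.21, adjusted p = 0.00128). The PeBoW complex, made of Pes1, Bop1 and Wdr12, sat at the low end: KO minus rescue in dense cells was 0.77 ± 0.18 (adjusted p = 0.00291) for Bop1, 0.50 ± 0.21 (adjusted p = 0.061) for Pes1 and 0.25 ± 0.21 (adjusted p = 0.314) for Wdr12. In dense rescue cells the 3 PeBoW genes fell like the rest, by log2 changes of -1.77, -0.86 and -0.95 in the same order. In KO cells their changes with density were -0.58 ± 0.18 (adjusted p = 0.0642), -0.38 ± 0.21 (adjusted p = 0.281) and -0.58 ± 0.21 (adjusted p = 0.101), none of which passed. Bop1 alone of the 30 genes had sparse KO arrays that were all below the sparse rescue arrays, by a log2 change of -0.42 ± 0.18 (adjusted p = 0.074), which did not pass; 30.0% of all genes were lower without overlap there.

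Ddx21, an RNA helicase of the nucleolus, and Mybbp1a, a nucleolar protein that binds MYB and represses RNA polymerase I, had sparse levels that overlapped between the lines. Their log2 changes with density in rescue cells were -2.16 ± 0.19 (adjusted p = 1.06e-05) and -1.61 ± 0.20 (adjusted p = 7.66e-05), and in KO cells -0.39 ± 0.19 (adjusted p = 0.217) and -0.59 ± 0.20 (adjusted p = 0.0768). The interaction was 1.77 ± 0.27 (adjusted p = 0.00108) for Ddx21 and 1.02 ± 0.28 (adjusted p = 0.0228) for Mybbp1a. The other 2 probes of Ddx21, also well above background on all 12 arrays, fell in KO cells, by -1.32 (adjusted p = 0.00323) and -1.63 (adjusted p = 0.00239), and had interactions of 0.90 (adjusted p = 0.0526) and 1.09 (adjusted p = 0.0425; limma fit of all probes).

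All 30 measured ribosome biogenesis genes fell at high density in rescue cells, and their medians by role ran from small subunit factors (largest fall) to RNA polymerase I genes (smallest). The median log2 change was -1.65, against -0.08 over all genes tested, and ranged from -2.42 (Rrp12) to -0.55 (Nop10). By role the median was -2.16 for 4 small subunit factors, -1.76 for 4 H/ACA proteins, -1.63 for 9 large subunit factors and -0.92 for 5 RNA polymerase I genes. All 30 genes were below 0 on each of the 3 days, with medians of -1.44, -1.59 and -1.68. With spike-in scaling the median was -0.94 and 7 genes fell, among 2.56% of all genes. Without day 3 27 genes fell, among 15.8% of all genes. The second probes of Ubtf (-0.24, adjusted p = 0.508) and Pes1 (-0.58, adjusted p = 0.14) were not called (limma fit of all probes). All probes of the other genes with several probes were called lower. Polr1c lost its call without dense rescue 3 (highest adjusted p = 0.0588). Ubtf lost its call without dense rescue 1 (highest adjusted p = 0.0772). Fbl lost its call without sparse rescue 1 or sparse rescue 2 (highest adjusted p = 0.0578). Npm1 lost its call without sparse rescue 1, sparse rescue 2 or dense rescue 3 (highest adjusted p = 0.0832).

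In KO cells the genes that fell with density were Rrn3, Nhp2, Rrp9, Rrp12, Nop16 and Ppan. The median log2 change of the 30 genes was -0.52, against 0.00 over all genes, and ranged from -1.50 (Rrp12) to 0.57 (Gar1). Dense and sparse KO arrays did not overlap for 18 genes in the lower and 1 in the higher direction, against 19.1% and 19.1% of all genes. On days 1 to 3 the medians were -0.72, -0.67 and -0.22, with 26, 27 and 23 genes below 0. The direction depended on the scaling: the median was -0.27 with the array median (1 gene fell) and 2.71 with the spike-in, where 30 genes rose and the median of all genes was 3.23. Of all genes 2.33% fell with the array median and 99.6% rose with the spike-in. The count of falls was 0 without dense KO 2, 2 without sparse KO 1, 3 without sparse KO 2 or dense KO 1, and 5 without day 3. The shares of all genes that fell were 2.08%, 2.54%, 3.55%, 3.96% and 2.7% in the same order. Probes other than the brightest also fell in KO cells: 3 of 4 probes of Ncl, 2 of 3 each of Ddx21, Heatr1 and Wdr12, and 1 of 3 of Bysl were called (limma fit of all probes), and the mean of a gene's probes gave 12 falls. With that mean 8.1% of all genes fell. Each of the 6 calls was lost without at least 1 array. Rrn3 lost its call without any 1 of 10 arrays, all but sparse rescue 1 and sparse rescue 3 (highest adjusted p = 0.14). Nhp2 lost its call without sparse KO 1, sparse KO 2, dense KO 1 or dense KO 2 (highest adjusted p = 0.0905). Rrp9 lost its call without dense KO 2 (highest adjusted p = 0.0542). Rrp12 lost its call without dense KO 1 or dense KO 2 (highest adjusted p = 0.0656). Nop16 lost its call without sparse KO 1, sparse KO 2, dense KO 1 or dense KO 2 (highest adjusted p = 0.098). Ppan lost its call without sparse KO 1, dense KO 2 or dense KO 3 (highest adjusted p = 0.0984). With normexp background correction 0 genes fell, where 0.217% of all genes did.

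The test of the difference between these responses called 17 genes, whose change with density was higher in KO than in rescue cells. They were Gar1 (2.23), Npm3 (1.93), Ddx21 (1.77), Nolc1 (1.62), Nhp2 (1.58), Dkc1 (1.58), Rrp1b (1.55), Heatr1 (1.32), Rrp9 (1.27), Ppan (1.25), Bop1 (1.19), Nop58 (1.19), Nop2 (1.08), Ubtf (1.06), Mybbp1a (1.02), Nop16 (1.01) and Polr1b (0.88), as log2 changes in KO minus those in rescue cells. Of the called genes with several probes, all probes of Dkc1, Nolc1 and Rrp1b were called, but 2 of 3 of Ddx21, 1 of 3 of Heatr1 and 1 of 2 each of Nop16 and Ubtf, whose lowest values were 0.90, 0.19, 0.26 and 0.40 in this order. Of the genes not called, a dimmer probe was called for Npm1 (1.12, adjusted p = 0.00959) and for Ncl (1.21, adjusted p = 0.0265). These were 1 of 2 probes of Npm1 and 1 of 4 of Ncl (limma fit of all probes). No probe of Bysl, Pes1 or Wdr12 was called. The values of the other 13 genes were also above 0, down to 0.10 for Polr1c, and the median of the 30 was 1.02, against 0.04 over all genes. On the day 2 slide, which alone held both lines, 29 of 30 interactions were above 0 with a median of 0.84, from 1 culture per group and without a test. The 17 calls became 6 with normexp background correction, where 2.98% of all genes were called higher, and 5 without day 3, where 5.07% were; with spike-in scaling 30 were called, as were 89.1% of all genes. Polr1b lost its call without sparse rescue 2, sparse KO 3, dense KO 2 or dense KO 3 (highest adjusted p = 0.0641). Ubtf lost its call without dense rescue 1, sparse KO 1, sparse KO 3, dense KO 2 or dense KO 3 (highest adjusted p = 0.0593). Nop58 lost its call without any 1 of 8 arrays, all but sparse rescue 3, dense rescue 2, sparse KO 1 and dense KO 1 (highest adjusted p = 0.0855). Rrp1b lost its call without any 1 of 7 arrays, all but sparse rescue 1, sparse rescue 2, dense rescue 3, sparse KO 3 and dense KO 2 (highest adjusted p = 0.0859). Mybbp1a lost its call without sparse rescue 1, sparse KO 1 or dense KO 3 (highest adjusted p = 0.0538). With the experimental day as a replicate block Wdr74 was called as well; its log2 interaction was 0.92 (adjusted p = 0.0259), against 0.92 ± 0.30 (adjusted p = 0.0504) without the block.

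**Figure D2:**
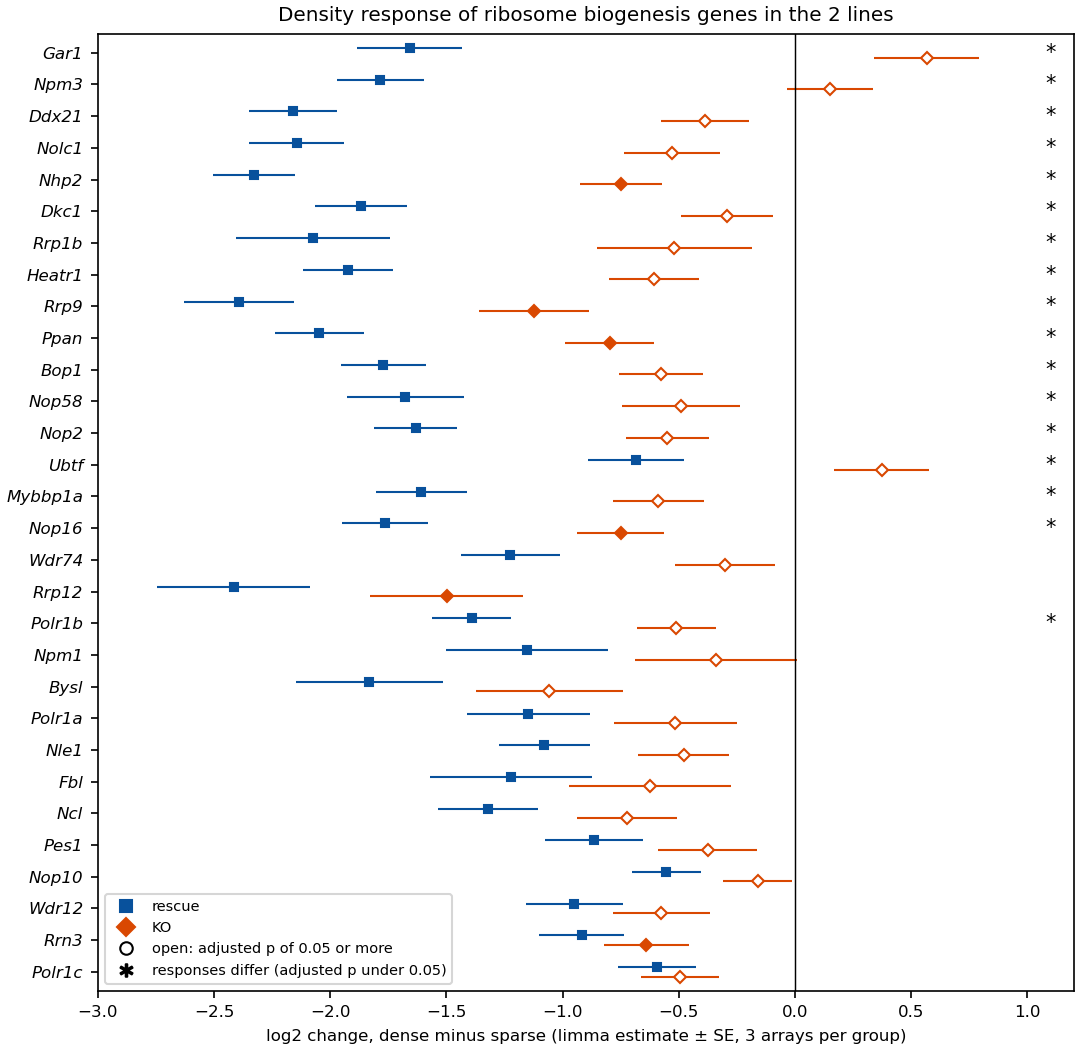
Log2 change from sparse to dense culture (limma estimate ± SE, 3 arrays per group) of each of the 30 genes in rescue (squares) and KO cells (diamonds), ordered by the interaction; open symbols did not pass an adjusted p of 0.05, and asterisks mark the 17 genes with a called interaction. All rescue symbols lie left of 0 and are filled, and 6 KO symbols are filled; with spike-in scaling the KO values lie right of 0.

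Dense KO cells had higher levels than dense rescue cells for 28 of the 30 genes, led by Nop2, Nolc1 and Rrp1b. The median log2 difference was 1.42, against 0.08 over all genes, and 22 of the 28 called genes differed by at least 2-fold. The list and its direction were known from earlier results of these data. Wdr12 and Pes1 did not pass, and the groups overlapped for Wdr12 alone; 34.7% of all genes were higher without overlap. In the limma fit of all probes 3 of 4 probes of Ncl were called, and the lowest value was 0.13 (adjusted p = 0.733). For Wdr12 1 of 3 probes was called there, a dimmer one, at 0.45 (adjusted p = 0.0417). By role the median was 1.80 for H/ACA proteins, 1.80 for small subunit factors, 1.19 for RNA polymerase I genes and 1.12 for large subunit factors. The medians on days 1 to 3 were 1.12, 1.35 and 1.79, with 30 of 30 genes above 0 each day, day 2 being the shared slide. Treating the slide as a block gave 25 calls, and omitting day 3 gave 26, where 25.5% and 27.3% of all genes were called higher. Npm1 lost its call without sparse rescue 1, dense rescue 3, dense KO 1, dense KO 2 or dense KO 3 (highest adjusted p = 0.169). The other probe of Npm1 was also called, at 1.23 (adjusted p = 7.05e-05, limma fit of all probes), and was not refitted with arrays left out. Rrp12 lost its call without dense rescue 3 or dense KO 3 (highest adjusted p = 0.0734).

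Sparse KO cells differed less from sparse rescue cells, and the genes that were higher were 4 of 5 RNA polymerase I genes, 6 subunit assembly factors, Nolc1 and Nop10 (directions that turn with spike-in scaling, except for Nop2). The RNA polymerase I genes were Polr1a, Polr1b, Polr1c and Rrn3, and the assembly factors Bysl, Heatr1, Nop2, Ppan, Nop16 and Nle1. Their log2 differences ran from 0.49 (Nop10) to 1.78 (Nop2), and the median of all 30 was 0.32, against 0.03 over all genes. On days 1 to 3 the medians were 0.56, 0.47 and 0.26, with 23, 25 and 21 genes above 0. The direction depended on the scaling: with the array median 4 genes were higher and 1 lower (median 0.01, all genes -0.28), and with the spike-in 0 were higher and 19 lower (median -1.32, all genes -1.61). The 19 were 63.3% of the 30 genes, against 74.5% of all genes lower with the spike-in. Higher calls numbered 3 with normexp background correction (10% of the 30 genes, against 12% of all genes), 4 when the slide was a block (13.3% against 15.5%) and 11 without day 3 (36.7% against 19.6%). The share of the 30 genes was thus below that of all genes with normexp, with the slide block and with the array median (13.3% against 14.4%). In the limma fit of all probes, every probe of Heatr1 and Nop16 was called, but 2 of 3 of Bysl and 1 of 2 of Nolc1. The probes not called had values of 0.57 (Bysl, adjusted p = 0.12) and 0.58 (Nolc1, adjusted p = 0.0902). A dimmer probe of Rrp1b was called there (1.05, adjusted p = 0.00601). Polr1a lost its call without sparse rescue 1, sparse rescue 2, sparse KO 1 or sparse KO 3 (highest adjusted p = 0.129). Nop10 lost its call without sparse KO 1 or sparse KO 2 (highest adjusted p = 0.069). Heatr1 lost its call without sparse rescue 2 (highest adjusted p = 0.0589). Nop16 lost its call without sparse rescue 1, sparse KO 1 or sparse KO 2 (highest adjusted p = 0.0714). Nle1 lost its call without any 1 of 9 arrays, all but sparse rescue 2, dense KO 1 and dense KO 3 (highest adjusted p = 0.157). With the experimental day as a replicate block Rrp1b was called as well; its log2 difference was 0.80 (adjusted p = 0.0172), against 0.80 ± 0.33 (adjusted p = 0.0665) without the block.

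A further 122 ribosome biogenesis genes, listed by function and not among the 34, were lower in dense than in sparse rescue cells in most cases. In dense rescue cells 87 fell and 0 rose (limma; unadjusted 92 and 0), with a median log2 change of -0.90; the largest falls were of Exosc6, a subunit of the RNA exosome (-2.21 ± 0.16, adjusted p = 3.34e-06), and Ltv1, a small subunit export factor (-2.18 ± 0.28, adjusted p = 0.000106). In dense KO cells 14 fell and 2 rose (median -0.32). The falls in rescue cells were 71.3% of the 122, against 21% of all genes. In KO cells 11.5% fell and 1.64% rose, against 5.48% and 5.43% of all genes. Nol10 (-1.77 ± 0.37, adjusted p = 0.0133) and the RNA acetyltransferase Nat10 (-1.35 ± 0.22, adjusted p = 0.00423) fell and Exosc7 rose (1.16 ± 0.28, adjusted p = 0.0233); with spike-in scaling Nol10 and Nat10 rose too, by 1.46 and 1.88. With 1 array left out the KO count was 5 to 18 falls, lowest without dense KO 2 and 7 without any 1 of the sparse KO arrays. Nol10 lost its call without sparse KO 3 (highest adjusted p = 0.0518). Exosc7 lost its call without sparse KO 1, sparse KO 3 or dense KO 2 (highest adjusted p = 0.0968). The interaction was called for 35 genes, all higher (23 to 34 with 1 array left out, lowest without dense rescue 2, sparse KO 3 or dense KO 3), with the largest values for Ruvbl2, an ATPase of particle assembly (1.71 ± 0.34, adjusted p = 0.00488), and Ltv1 (1.67 ± 0.39, adjusted p = 0.0115). The 35 were 28.7% of the 122, against 11.3% of all genes.

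Between the lines, 78 of these 122 genes were higher and 2 lower in dense KO cells, and 36 higher and 10 lower in sparse KO cells (0 and 96 with spike-in scaling). As shares, 63.9% were higher and 1.64% lower in dense cells, against 31.9% and 29.7% of all genes. In sparse cells 29.5% were higher and 8.2% lower, against 23.2% and 25.6% of all genes. With spike-in scaling 4.5% of all genes were higher and 74.5% lower there. Emg1, a ribosomal RNA methyltransferase (3.03 ± 0.27, adjusted p = 1.3e-06), and Krr1 (2.74 ± 0.16, adjusted p = 3.99e-08) led in dense cells, where Rrp1 was the largest opposite value (-1.02 ± 0.22, adjusted p = 0.00178). In sparse cells the helicase Ddx47 (2.06 ± 0.28, adjusted p = 8.12e-05) and Nat10 (2.02 ± 0.22, adjusted p = 9.53e-06) were the highest and Imp4 the lowest (-1.08 ± 0.21, adjusted p = 0.00106). The sparse count of higher genes was 22 to 35 with 1 array left out, the lowest value being that without sparse KO 1.

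The 79 cytosolic ribosomal protein genes, whose products the biogenesis factors assemble, had a smaller median change in dense rescue cells than the 30 biogenesis genes. Of them 2 fell and 0 rose there (unadjusted 5 and 0), with a median log2 change of -0.31, and in dense KO cells 3 fell (unadjusted 34; 79 rose with spike-in scaling), with a median of -0.54. The falls were 2.53% of the 79 in rescue cells and 3.8% in KO cells, against 21% and 5.48% of all genes. The 79 rises in KO cells with spike-in scaling stand beside rises of 99.6% of all genes. No interaction was called (limma, 0 higher and 0 lower; unadjusted 1 and 0), and the median interaction was -0.28. Among all genes 11.3% had a higher and 9.46% a lower interaction. In dense cells 6 were higher and 1 lower in KO than in rescue cells, with the largest value for Rpl14 (1.36 ± 0.20, adjusted p = 9.76e-05). As shares, 7.59% of the 79 were higher and 1.27% lower, below the 31.9% and 29.7% of all genes. Leaving out 1 array moved these small counts, to between 0 and 18 falls in rescue cells, the highest without dense rescue 2 and the lowest without dense rescue 3. Probes of ribosomal protein genes can share sequence with processed pseudogenes, and the probe sequences were not used here.

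DNA replication genes, whose level marks dividing cells, fell in dense rescue cells, and none passed the test in KO cells. Of 39 genes 39 fell in dense rescue cells (median -1.61), led by Cdc6, which loads the replicative helicase (-3.42 ± 0.24, adjusted p = 2.43e-06), and Rrm2, a subunit of ribonucleotide reductase (-3.12 ± 0.27, adjusted p = 1.02e-05). In dense KO cells 0 fell and 0 rose (limma; unadjusted 2 and 3; 39 rose with spike-in scaling), with a median of 0.07 where the 30 biogenesis genes had -0.52. The interaction was called for 32 genes, with Cdc6 (3.89 ± 0.33, adjusted p = 4.78e-05) and Pole2 (3.24 ± 0.35, adjusted p = 0.000169) at the top. In dense cells 36 of 39 were higher in KO than in rescue cells, and in sparse cells 11 were higher and 5 lower (0 and 29 with spike-in scaling). As shares, 92.3% were higher in dense cells, against 31.9% of all genes. In sparse cells 28.2% were higher and 12.8% lower, against 23.2% and 25.6% of all genes. The falls in rescue cells were 100% and the interactions 82.1%, against 21% and 11.3% of all genes. With density in KO cells 5.48% of all genes fell and 5.43% rose. With spike-in scaling 99.6% of all genes rose there. In sparse KO against sparse rescue cells that scaling gave 4.5% of all genes higher and 74.5% lower. The part of the DNA replication genes in the values of the biogenesis genes was not tested.

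**Figure D3:**
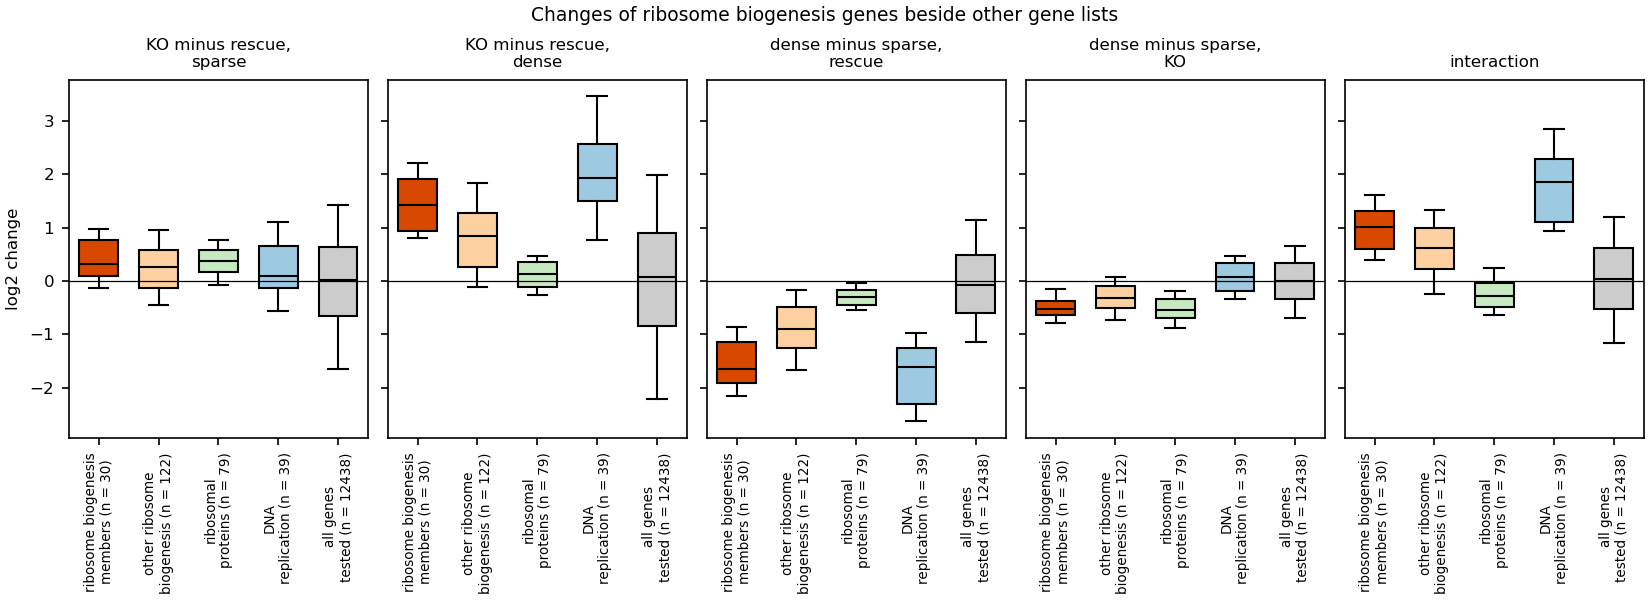
Log2 changes in the 5 comparisons (panels) for the 30 ribosome biogenesis genes, 122 other ribosome biogenesis genes, 79 ribosomal protein genes, 39 DNA replication genes and all 12438 genes tested; boxes span the quartiles with the median as a line, and whiskers the 10th to the 90th percentile. The 30 genes had a median of -1.65 with density in rescue cells and -0.52 in KO cells (2.71 with spike-in scaling), while DNA replication genes had -1.61 and 0.07 and ribosomal protein genes -0.31 and -0.54.

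Of 15 listed regulators of these genes 14 were tested. With density 6 rose and 4 fell in rescue cells (1 of the falls being Mycn, which was not above background there), and 1 rose and 1 fell in KO cells. In KO against rescue cells 3 were higher and 4 lower when dense, and 4 higher and 3 lower when sparse. As shares of the 14, these were 21.4% and 28.6% when dense and 28.6% and 21.4% when sparse, near the 31.9% and 29.7% and the 23.2% and 25.6% of all genes. With density they were 42.9% and 28.6% in rescue cells, against 19.0% and 21% of all genes, and 7.14% each way in KO cells, against 5.43% and 5.48%. Mycn separated the lines on all 12 arrays. Its levels were 2.66, 3.07 and 2.76 in sparse KO cells and 3.19, 3.22 and 2.95 in dense KO cells, whereas its probe was not well above background on any of the 6 rescue arrays. The difference was at least 458-fold in sparse and at least 769-fold in dense cells (limma, adjusted p = 2.12e-11 and 1.03e-11), a bound set by the lowest well measured signal of the rescue arrays or the probe's own. Myc fell with density in both lines (in KO cells not with spike-in scaling). Its levels were 2.93, 3.44 and 3.56 in sparse rescue and 1.56, 0.98 and 1.65 in dense rescue cells. In KO cells Myc had levels of 2.76, 2.37 and 2.78 when sparse and -0.32, 0.29 and 1.34 when dense. Myc changed with density by -1.91 ± 0.36 (adjusted p = 0.00149) in rescue cells and -2.20 ± 0.36 (adjusted p = 0.0049) in KO cells (log2; 1.03 in KO cells with spike-in scaling). In dense cells KO minus rescue was -0.96 ± 0.36 (adjusted p = 0.0379). Myc lost this call without dense rescue 1, dense rescue 3, dense KO 1 or dense KO 2 (highest adjusted p = 0.161). Dense KO cells had the lowest mean Myc level of the 4 groups, 0.44 ± 0.84 (SD, n = 3; not with spike-in scaling).

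The MXD family, which competes with MYC for the partner MAX, had members with opposite directions. Mxd4 had levels of -0.43, -0.60 and -0.50 in sparse rescue and 0.81, 0.95 and 0.85 in dense rescue cells. In KO cells Mxd4 had levels of -2.12, -1.94 and -2.04 when sparse and -1.19, -1.23 and -1.77 when dense. No group of Mxd4 overlapped with another, and KO cells were lower at both densities, by -1.52 ± 0.18 (adjusted p = 2.05e-05) in sparse and -2.27 ± 0.18 (adjusted p = 4.35e-07) in dense cells (log2). It rose with density in rescue cells by 1.39 ± 0.18 (adjusted p = 0.000112) and in KO cells by 0.63 ± 0.18 (adjusted p = 0.0433). Mxd4 lost the KO call without any 1 of 9 arrays, all but sparse rescue 3, dense rescue 2 and dense KO 3 (highest adjusted p = 0.158). Mxd3, a member tied to cells in S phase, fell in dense rescue cells by -1.53 ± 0.20 (adjusted p = 0.000129) and had an interaction of 2.13 ± 0.28 (adjusted p = 0.000528), the largest of the 14 regulators tested. Mxi1 rose in dense rescue cells by 1.13 ± 0.18 (adjusted p = 0.000529).

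Among the growth regulators, Mtor rose with density in rescue cells by 0.68 ± 0.16 (adjusted p = 0.00646) and was higher in KO cells by 1.24 ± 0.16 (adjusted p = 5.64e-05) when sparse (-0.40 with spike-in scaling) and 0.62 ± 0.16 (adjusted p = 0.00616) when dense (log2). Maf1, the repressor of RNA polymerase III, was lower in KO cells, by -0.66 ± 0.18 (adjusted p = 0.0102) when sparse and -0.71 ± 0.18 (adjusted p = 0.00501) when dense (0.18 with spike-in scaling), as was Brf1, a factor of RNA polymerase III. The log2 differences of Brf1 were -1.10 ± 0.18 (adjusted p = 0.000296) and -0.94 ± 0.18 (adjusted p = 0.000651) in the same order. In dense rescue cells Maf1 (0.58 ± 0.18, adjusted p = 0.0244), Mnt (0.95 ± 0.33, adjusted p = 0.0388) and Mga (0.65 ± 0.20, adjusted p = 0.025) also rose and Rptor fell (-1.06 ± 0.32, adjusted p = 0.0205). Maf1 lost its call without sparse rescue 3, dense rescue 1 or dense rescue 3 (highest adjusted p = 0.0775). Mnt lost its call without sparse rescue 3, dense rescue 1 or dense rescue 2 (highest adjusted p = 0.146). Mga lost its call without sparse rescue 1, sparse rescue 2 or dense rescue 3 (highest adjusted p = 0.096). Rptor lost its call without sparse rescue 3, dense rescue 1 or dense rescue 3 (highest adjusted p = 0.0744). These are levels of messenger RNA, and the activity of mTOR, MYC or MAF1 was not measured.

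**Figure D4:**
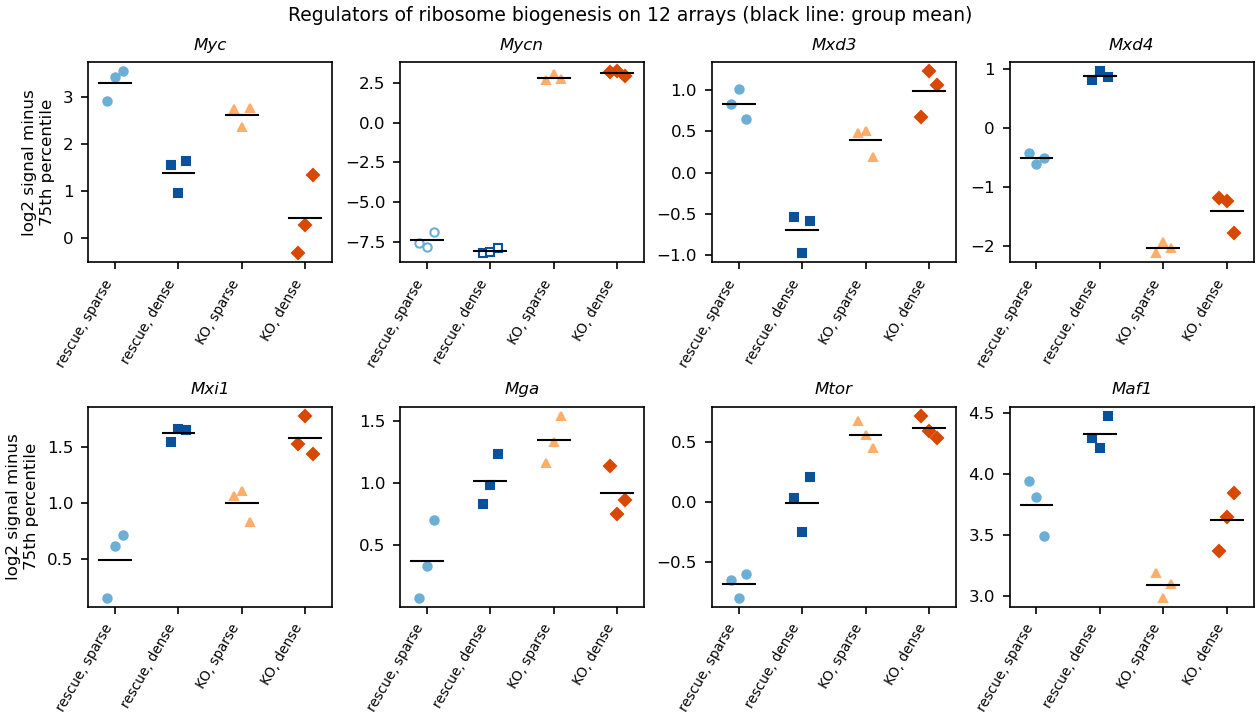
Levels of 8 regulators on the 12 arrays (1 point per culture, log2 signal minus the array's 75th percentile, group means as black lines; open symbols are arrays where the probe was not well above background). Mycn is well above background on the 6 KO arrays alone, Myc is lower in the dense than in the sparse group of each line (in KO cells not with spike-in scaling), and Mxd4 is highest in dense rescue cells.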

How the data were processed

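Messenger RNA was measured on 12 one-colour Agilent mouse arrays (Cy3), from 100 ng of total RNA with spike-in RNA, per the labels' protocols. The authors deposited scanner files whose processed signal is an intensity, background-subtracted by Agilent Feature Extraction 10.5.1.1 per the file headers, and a table of log2 values whose centring and scaling are not given in the sources used here; the deposited log2 table was used only as an alternative. Its columns were checked by correlation with each scanner array.

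From the intensity values, log2 signal minus each array's 75th percentile was taken. Kept probes were those that the scanner flagged as well above background on the 3 arrays of 1 group or more (25931, with a gene for 18158). They were named through RefSeq accessions (24375 of 41174 probes matched 1 gene, 16799 none). The brightest probe of each gene stood for it. limma 3.58.1 in R 4.3.3 fitted 4 group means to 12438 genes, with eBayes moderation (residual df 8, prior df 3.58). p-values were adjusted by Benjamini-Hochberg across the 12438 genes; a call is an adjusted p under 0.05. The fit was also run on simulated arrays with independent noise and few changed genes, which differ from these data in both respects. That run checks the computation and not the calls reported here.

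The members, the other lists and the rule for named genes were chosen with earlier results of these data known. All members could be named. Values on every array were given for the 2 largest called rises and falls of each comparison and for fixed genes (Polr1a, Polr1b, Ubtf, Rrn3, Ncl, Npm1, Fbl); of the other lists, the 2 largest called changes in the leading direction and the largest opposite one were eligible, and fewer are named. All regulators could be named.

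The labels state that the replicate numbers are separate experimental days, so the numbers pair the cultures. Deviations of same-day arrays correlated above 0.1 in 11 of 18 pairs (-0.04 to 0.30). The p-values measure the spread between cultures of 1 line per genotype. Alternatives were normexp background correction (with the median spot signal, offset 50), quantile, array median and spike-in scaling, no filter or a filter on all 12 arrays, the mean of a gene's probes, slide and day as blocks, the 2 groups alone, the deposited log2 table, each array left out, and, added after seeing the data, day 3 left out.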

Additional observations from a re-analysis of the deposited data

Results flagged for a closer look

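The response to density differed between the lines for 17 of the 30 ribosome biogenesis genes by the test of the difference itself (limma interaction, adjusted p under 0.05), each of them higher in KO cells. On the log2 scale the difference in response was 2.23 for Gar1, 1.93 for Npm3, 1.77 for Ddx21, 1.62 for Nolc1, 1.58 for Nhp2 and 1.58 for Dkc1. It was 1.55 for Rrp1b, 1.32 for Heatr1, 1.27 for Rrp9, 1.25 for Ppan and 1.19 for Bop1. For the rest it was 1.19 for Nop58, 1.08 for Nop2, 1.06 for Ubtf, 1.02 for Mybbp1a, 1.01 for Nop16 and 0.88 for Polr1b. The adjusted p ran from 0.000594 (Npm3) and 0.000797 (Gar1) to 0.0369. The 17 were 56.7% of the 30 genes, against 11.3% of all genes with a higher and 9.46% with a lower interaction. Without day 3 the count was 5 (5.07% of all genes), with normexp background correction 6 (2.98% of all genes), and in the deposited value table by its column names 0 (limma, also 0 at an unadjusted p under 0.05), against 17.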

How the results depend on the processing

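All 5 comparisons were recomputed under 11 other settings named in advance, except the interaction with the 2 groups alone, which needs all 4 groups. They were also recomputed with each array left out in turn. Chosen after seeing the data, settings without day 3 in the scanner files and in the deposited value table were added. In the order KO minus rescue sparse and dense, dense minus sparse in rescue and KO cells, and the interaction, the counts of genes called higher and lower below stand beside the reported counts of 12 and 0, 28 and 0, 0 and 30, 0 and 6, and 17 and 0. Shares of all genes follow in the same order, in the direction of the reported calls unless stated. The reported shares were 23.2% higher, 31.9% higher, 21% lower, 5.48% lower and 11.3% higher. With the spike-in as the scale the counts were 0 and 19, 30 and 0, 0 and 7, 30 and 0 and 30 and 0, with median log2 changes of -1.32, 2.31, -0.94, 2.71 and 3.54. Of all genes 74.5% were then lower, 45.8% higher, 2.56% lower, 99.6% higher and 89.1% higher. With normexp the counts were 3 and 0, 25 and 0, 0 and 26, 0 and 0 and 6 and 0, with median log2 changes of 0.26, 1.32, -1.55, -0.48 and 1.09. All genes gave 12%, 20.4%, 10.4%, 0.217% and 2.98%. With the array median the counts were 4 and 1, 28 and 0, 0 and 28, 0 and 1 and 17 and 0, with median log2 changes of 0.014, 1.37, -1.64, -0.27 and 1.27. All genes gave 14.4%, 28.7%, 17.8%, 2.33% and 13.6%. With the slide as a block the counts were 4 and 0, 25 and 0, 0 and 30, 0 and 4 and 18 and 0, with median log2 changes of 0.31, 1.41, -1.65, -0.52 and 1.02. All genes gave 15.5%, 25.5%, 22.4%, 5.44% and 12.2%. In the deposited value table by its column names the counts were 0 and 0, 0 and 0, 0 and 0, 0 and 0 and 0 and 0, with median log2 changes of 0.15, 0.34, -1.04, -0.75 and 0.15. Without day 3 that table gave 10 and 0, 25 and 0, 0 and 26, 0 and 3 and 12 and 0, with median log2 changes of 0.41, 1.36, -1.49, -0.54 and 0.78. All genes gave 17.2%, 25.4%, 12.8%, 1.71% and 6.04%. The scanner files without day 3 gave 11 and 0, 26 and 0, 0 and 27, 0 and 5 and 5 and 0, with median log2 changes of 0.43, 1.25, -1.55, -0.66 and 0.78. All genes gave 19.6%, 27.3%, 15.8%, 2.7% and 5.07%. With the mean of a gene's probes the counts were 13 and 0, 28 and 0, 0 and 29, 0 and 12 and 16 and 0, with median log2 changes of 0.31, 1.32, -1.64, -0.53 and 0.92. All genes gave 25.5%, 33.1%, 23.4%, 8.1% and 12.2%. With quantile normalization the counts were 12 and 0, 29 and 0, 0 and 30, 0 and 5 and 17 and 0, with median log2 changes of 0.32, 1.40, -1.53, -0.40 and 0.96. All genes gave 22.6%, 31.1%, 18.6%, 4.45% and 11.6%. That table with all 3 days gave, at an unadjusted p under 0.05 (limma), 9 falls with density in rescue cells, 6 in KO cells and 0 elsewhere. Its columns named for day 3 match the arrays of the other line, which was the reason to add the settings without that day. With 1 array left out, the count of falls with density in KO cells ran from 0 to 7, the median for KO minus rescue in sparse cells from 0.31 to 0.45 and the median interaction from 0.95 to 1.15. With the experimental day as a replicate block the counts were 13 and 0, 28 and 0, 0 and 30, 0 and 6 and 18 and 0. All genes gave 24.7%, 33.3%, 22.9%, 6.37% and 12.8%. The block added the calls of Wdr74 (interaction) and Rrp1b (sparse cells) and changed no other call among the genes named. The sign turned under spike-in scaling for Polr1a -0.88, Polr1b -0.57, Polr1c -0.92, Ubtf -1.50, Rrn3 -0.77, Fbl -0.79, Nop58 -1.47, Dkc1 -1.42, Nhp2 -1.41, Nop10 -1.15, Ncl -1.39, Npm1 -1.54, Nolc1 -0.87, Rrp9 -1.25, Rrp12 -1.53, Bysl -0.47, Heatr1 -0.98, Nop16 -1.03, Wdr74 -1.53, Pes1 -1.63, Ppan -0.67, Nle1 -1.12, Rrp1b -0.84, Mxi1 -1.13, Mga -0.65 and Mtor -0.40 for KO minus rescue in sparse cells. It also turned for Maf1 0.18 for KO minus rescue in dense cells. It turned further for Polr1c 0.11, Ubtf 0.0225 and Nop10 0.15 for dense minus sparse in rescue cells. It turned further for Polr1a 2.71, Polr1b 2.72, Polr1c 2.74, Rrn3 2.59, Fbl 2.61, Nop58 2.74, Dkc1 2.94, Nhp2 2.48, Nop10 3.07, Ncl 2.51, Npm1 2.89, Nolc1 2.70, Rrp9 2.10, Rrp12 1.73, Bysl 2.17, Heatr1 2.62, Nop2 2.68, Nop16 2.48, Wdr12 2.65, Wdr74 2.93, Bop1 2.65, Pes1 2.85, Ppan 2.43, Nle1 2.75, Rrp1b 2.71, Mybbp1a 2.64, Ddx21 2.84, Nol10 1.46, Nat10 1.88 and Myc 1.03 for dense minus sparse in KO cells. It turned further for Mga 1.44 for the interaction. Under the deposited value table it turned for Fbl -0.07, Nop58 -0.16, Dkc1 -0.19, Npm1 -0.15, Npm3 0.03, Bop1 0.50 and Pes1 -0.20 for KO minus rescue in sparse cells. It also turned for Fbl -0.12, Rrp12 -0.42, Bysl -0.20, Wdr12 -0.0367 and Pes1 -0.25 for KO minus rescue in dense cells. It turned further for Ubtf -0.13, Gar1 -0.23 and Npm3 -0.30 for dense minus sparse in KO cells. It turned further for Polr1a -0.15, Polr1b -0.11, Fbl -0.0467, Rrp9 -0.0237, Rrp12 -0.48, Bysl -0.66, Nop16 -0.0133, Wdr74 -0.14, Bop1 -0.29, Pes1 -0.0567 and Ltv1 -0.40 for the interaction. Under the array median it turned for Ubtf -0.17, Nop58 -0.13, Dkc1 -0.0823, Nhp2 -0.0762, Ncl -0.0601, Npm1 -0.21, Rrp12 -0.19, Wdr74 -0.20 and Pes1 -0.30 for KO minus rescue in sparse cells. It also turned for Nop10 0.0918 for dense minus sparse in KO cells. Under the slide as a block it turned for Gar1 0.0493, Ncl -0.0435, Npm1 -0.12, Rrp12 -0.0197, Pes1 -0.11 and Mybbp1a 0.11 for KO minus rescue in sparse cells. The sign turned under quantile normalization for Npm1 -0.058 for KO minus rescue in sparse cells. It also turned for Npm1 0.0491 for dense minus sparse in KO cells. The sign turned under normexp for Ubtf -0.11, Wdr74 -0.18 and Pes1 -0.0905 for KO minus rescue in sparse cells. Under that table without day 3 it turned for Bop1 0.13 and Pes1 -0.09 for KO minus rescue in sparse cells. It also turned for Npm1 0.25 for dense minus sparse in KO cells. Under the scanner files without day 3 it turned for Pes1 -0.14 for KO minus rescue in sparse cells. It also turned for Polr1c -0.11 for the interaction. With 1 array left out the sign turned for Gar1 (-0.22 to 0.18), Nop58 (-0.0668 to 0.35), Npm1 (-0.15 to 0.44), Pes1 (-0.18 to 0.10), Rrp12 (-0.034 to 0.27), Ubtf (-0.0758 to 0.29) and Wdr12 (-0.27 to 0.00267) for KO minus rescue in sparse cells, and for Polr1c (-0.0288 to 0.20) for the interaction, none of which was called. The number of arrays limits the precision; all 30 genes were well above background on all 12 arrays.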
